A study of Mus musculus with 12 samples.

Results

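The regions described here are N6-methyladenosine (m6A) peaks that were present at day 4 of keratinocyte differentiation and absent from the same place at day 0, in genes that already carried an m6A peak elsewhere at day 0. A day 4 peak was taken as new when no base of it overlapped a day 0 peak on the same strand and when its gene had at least 1 day 0 peak. This gave 2841 new peaks in 1984 genes, out of 18423 day 4 peaks. They made up 16.4% (95% Wilson interval 15.8 to 16.9) of the 17369 day 4 peaks in the 6332 genes with peaks on both days, and 31.3% of those genes (30.2 to 32.5) held at least 1. Another 1054 day 4 peaks without overlap lay in genes with no day 0 peak and are not members. Members were chosen by the positions of the authors' peak calls on the 2 days, so the day 4 presence and day 0 absence of these peaks is the rule and not a finding.

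The cells were primary keratinocytes from newborn mouse epidermis, the stem and progenitor cells of the skin surface, plated on mitomycin C-treated feeder fibroblasts, which support growth without dividing. The day 4 group was differentiated by a calcium shift, the standard trigger that takes cultured keratinocytes out of proliferation, and the day 0 group was undifferentiated and kept in low-calcium, serum-containing medium. No genotype or strain is stated, and neither day carries an engineered allele in the labels. Each day had 3 m6A-immunoprecipitated and 3 input libraries of fragmented polyadenylated RNA, 12 in all. Separate animals or cultures are not named for the replicates, so p-values in the authors' tables may measure technical spread alone. The deposited tables hold 1 value per peak, site or gene and none per library, so no value per sample can be given and library depth is unknown. Among markers of basal keratinocytes, 16 of 17 had peaks on both days. Of 18 fibroblast markers, 2 had a day 4 peak and none had a day 0 peak, so no fibroblast marker could hold a new peak. Of these markers 7 were higher at day 4 and 2 were lower in the authors' deposited table, with a mean normalized count of at most 2763, and their part in the results below was not tested. None of 8 melanocyte markers and 1 of 11 immune and endothelial markers had peaks on both days, and none of these held a new peak.

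m6A is placed on nascent mRNA by a methyltransferase complex whose catalytic subunit is METTL3, at a short sequence preference around a central adenosine that is often written GGAC. It is found mostly in long internal exons, around stop codons and in 3′ untranslated regions, and proteins of the YTH family bind it and affect splicing, export, translation and decay of the transcript. In the epidermis, m6A of the long noncoding RNA Pvt1 is the subject of the study from which these lists come, with Myc as its neighbour on the chromosome. Neither gene held a new peak: the 4 day 4 peaks of Myc all overlapped its 3 day 0 peaks, and Pvt1 had 1 day 0 peak and no day 4 peak.

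New peaks that begin near a transcription start could be read as sequence, because RefSeq promoter sequences (build GRCm38.p6, on which mm10 rests) cover the 250 bases before and 50 bases after each start. A window was there for 1541 of the 1984 genes. Of the new peaks, 118 touched the window of their own gene and 29 lay wholly inside it. The letters GGAC, searched on the transcript strand alone, stood in 8 of the 29 (27.6%, interval 14.7 to 45.7), against 13 of 35 overlapping day 4 peaks inside such windows (37.1%, 23.2 to 53.7). Among peaks 50 bp wide it was 6 of 27 new peaks and 6 of 27 overlapping peaks. As background, 18.9% of 32851 promoter entries hold GGAC in the first 50 transcribed bases and 15.9% in the 50 bases before the start. A match is a description of letters and not a methylated site. The following 30-base stretches of new peaks are written 5′ to 3′ on the transcript strand with GGAC in capitals. They show 6 of the peaks with the letters, and then Cnn3 and Sox11, which lack them and are described below for their gain and their number of new peaks.
Pcyt1a, chr16:32431166-32431195, plus strand: atgacagccaagaGGACtgtgacccagggg
Cdk2ap2, chr19:4097357-4097386, plus strand: cggctgagctgccGGACagccaaccccaga
Eps8l1, chr7:4464829-4464858, plus strand: aaagctggagcctGGACcttgagtctgagg
Yars, chr4:129189908-129189937, plus strand: atgcaacccgacgGGACtagcgtgacagtt
Nrarp, chr2:25180761-25180790, plus strand: ctattttgcaaagGGACgcgggtggagttc
Lurap1l, chr4:80910694-80910723, plus strand: gactaaaaggaaaGGACactgctgcagcaa
Cnn3, chr3:121426541-121426570, plus strand: gggcagcgagcagggcagccggtcccagtc
Sox11, chr12:27342689-27342718, minus strand: gccctcaactttttgcagaagaagcgcgcg

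Pcyt1a encodes the rate-limiting enzyme of phosphatidylcholine synthesis, and its new peak had the authors' enrichment score of 58.7, the highest of the 8 with GGAC. Yars, the cytosolic tyrosyl-tRNA synthetase, had a score of 13.5. The stretches of Pcyt1a and Yars run on as GGACT. The Pcyt1a peak lies wholly before the annotated start, and those of Eps8l1 and Yars begin before it. Nrarp, a feedback inhibitor of Notch signalling, had a score of 13.1, and the authors' deposited table of differential methylation called a gain of 2.16 at that place. The new peak of Cdk2ap2, a CDK2-associated protein, had a score of 21.9 and a called gain of 2.86 in the authors' deposited table. Cnn3 and Sox11 return below with the largest finite called gain and with many new peaks, and their first 50 bases hold no GGAC.

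New peaks were narrow. Peaks in both lists are built from windows of about 50 bp, and 72.5% of new peaks (2060 of 2841) were a single 50-bp window, against 17.1% of the 5008 day 4 peaks in the same genes that did overlap a day 0 peak. Median widths were 50 bp for new peaks and 248 bp for overlapping ones. Widths and overlaps were taken from start to end along the genome, introns included. The widest peak so measured was 111135 bp among new peaks and 221844 bp among overlapping ones, and a peak inside such a span counted as overlapping it. A narrow peak has fewer bases with which to meet another, so width and the rule are not independent.

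Enrichment scores of new peaks had a median of 8.19 with quartiles of 4.70 and 15.2, against a median of 15.5 and quartiles of 7.66 and 36.8 for overlapping peaks of the same genes. The score is the authors' own value on an unstated scale, and it is used only within the day 4 list. The median new peak stood at the 25.7th percentile of that list, against the 46.8th for overlapping peaks of the same genes. When only peaks of 50 bp were taken, the medians were 8.04 for new peaks and 8.12 for overlapping peaks, so within that width the 2 kinds lay close together, as the score plot shows. The authors' p-value was under 1e-05 for 82.7% of new peaks and 97.4% of overlapping ones, and 8 new peaks had a p above 0.05.

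**Figure D1:**
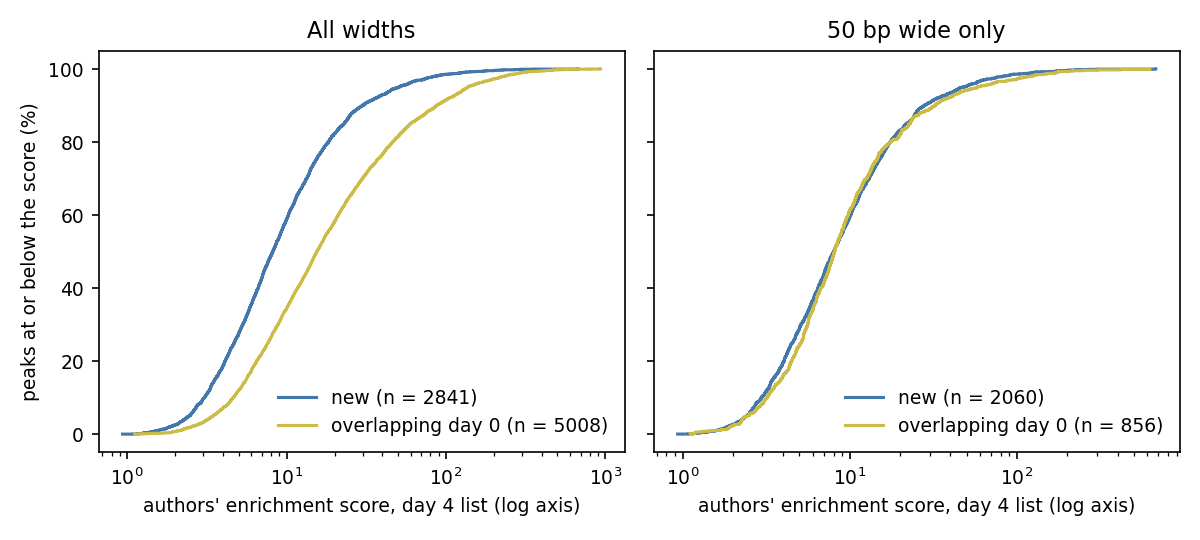
Cumulative share of day 4 peaks (y, percent) at or below each value of the authors' enrichment score (x, log axis), for new peaks and for day 4 peaks of the same genes that overlap a day 0 peak. The curve of new peaks lies to the left over all widths (medians 8.19 and 15.5), while for peaks of 50 bp the curves have medians of 8.04 and 8.12.

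Within a gene the new peak was seldom the strongest. New peaks were the highest scored day 4 peak of their gene in 10.4% of cases (295 of 2841), against 33.7% of overlapping peaks in the same genes. Of the 1928 genes that held both kinds, 12.3% had a new peak above every overlapping one, and the median ratio of the best new to the best overlapping score was 0.302. The other 56 genes had new peaks only. Overlapping peaks of these genes were more numerous (5008 against 2841) and wider (medians of 248 and 50 bp). The part of number and width in these ranks was not tested. Most host genes held a single new peak: 1406 genes had 1 new peak, 393 had 2 and 185 had at least 3. The share of genes with a new peak was 28.6% at 1 day 0 peak, 27.2% at 2, 29.7% at 3, 34.6% at 4 and 42.8% at 5 or more.

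Most new peaks lay close to methylation that was there before. The gap to the nearest day 0 peak of the gene, measured edge to edge along the genome with introns included, had quartiles of 50, 300 and 2511 bp. It was 0 bp for 362 new peaks (12.7%), which directly adjoined a day 0 peak, and 1 to 100 bp for 588 (20.7%). It was over 100 and up to 1000 bp for 927 (32.6%), over 1000 and up to 10000 bp for 587 (20.7%) and over 10000 bp for 377 (13.3%). Together, 66.1% lay within 1000 bp of a day 0 peak. At a gap of 0 bp, the neighbouring day 0 peak itself overlapped a day 4 peak in 38.7% of cases, while at each wider gap it did so in 85.9% to 87.8%. Over all day 0 peaks of genes with peaks on both days that share was 78.2%. The low share at 0 bp is tied to the rule, since a day 4 call over both windows would be a single overlapping peak and no member, and nothing is read from it.

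The 1-base threshold falls inside this window grid. Just inside it were the 362 adjoining peaks, led by Tmem110 with a score of 277, Osbpl8, of the oxysterol-binding protein family, with 223, and Bahcc1 with 202.5. Just outside were 184 day 4 peaks that overlapped a day 0 peak by exactly 1 bp, with a median score of 7.76 and a median width of 50 bp. Their leading members were Prkaa1, a catalytic subunit of AMP-activated kinase, with a score of 133, the kinase Ikbke with 109 and then the checkpoint gene Rad17. Adjoining new peaks had a median score of 8.48, so the peaks on either side of the threshold had much the same width and score. Without the adjoining peaks 2479 new peaks in 1766 genes remained, and with the peaks of 1-bp contact there were 3025 in 2107 genes.

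Relative to all day 0 peaks of the gene, 34.5% of new peaks lay between them, 33.2% lay 3′ of all and 32.3% lay 5′ of all. In genes with at least 2 day 0 peaks these shares were 46.5%, 27.4% and 26.1%. For 418 new peaks in 371 genes (14.7%), the nearest day 0 peak lay within 1000 bp and overlapped no day 4 peak. Of these 418, 222 directly adjoined it, in the next window, as in Tmem110 and Osbpl8.

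Gene ends could be set for the 2707 new peaks in protein-coding genes with a RefSeq span. Near the annotated 3′ end, at most 1000 bp away, were 31.9% (30.2 to 33.7) of them, against 27.2% (25.9 to 28.4) of overlapping peaks of the same genes. Within 1000 bp of the 5′ end were 16.8% (15.4 to 18.2) of new peaks, against 9.47% (8.68 to 10.3) of overlapping ones. Among 50-bp peaks the shares were 36.6% for new and 31.9% for overlapping peaks at the 3′ end, and 13.2% and 7.20%, in the same order, at the 5′ end. Place went with distance from older methylation. Of new peaks over 10000 bp from a day 0 peak, 42.9% lay near the 5′ end and 12.0% near the 3′ end, whereas at gaps over 100 and up to 1000 bp 9.27% lay near the 5′ end and 40.9% near the 3′ end. A wide gap needs a long gene, and where it leads depends on where the day 0 peak lies. These shares are therefore not independent of gene length and day 0 position, whose part was not tested. No exon annotation was used, so untranslated and coding parts were not told apart. Intervals cover counting over peaks only, and peaks of a gene share their libraries.

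**Figure D2:**
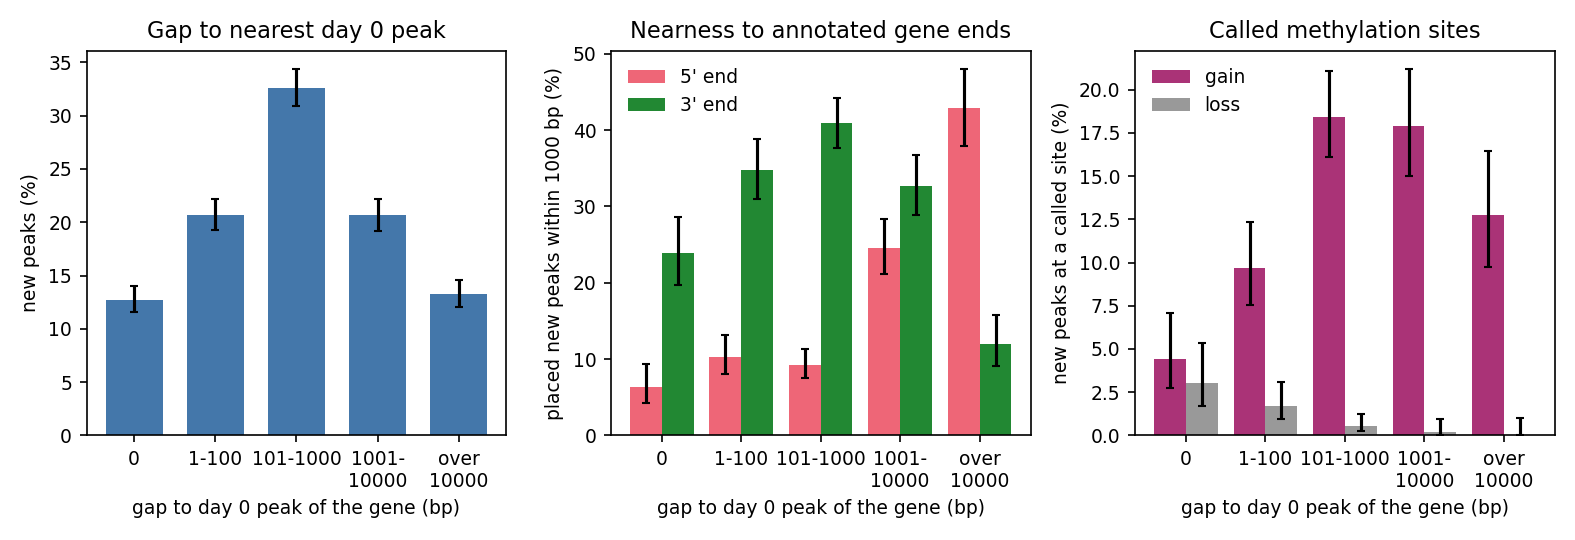
Bar charts of new peaks by the gap to the nearest day 0 peak of the gene (x, bp): the share of new peaks in each class, the share of placed new peaks within 1000 bp of the annotated 5′ or 3′ end, and the share at a called methylation gain or loss (y, percent; bars from 0, whiskers 95% Wilson intervals). Nearness to the 5′ end is 42.9% in the class over 10000 bp, and called gains are 4.42% in the class of 0 bp.

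In the authors' deposited table of differential methylation, 397 new peaks (14.0%) overlapped a site called as a gain at day 4 and 27 a site called as a loss, at a false discovery rate under 0.05. Gains were called at 4.79% and losses at 2.17% of all sites tested, 6.96% in all, and since the rule used the same contrast, the members' share says nothing beyond the rule. Its header does not name the direction: sites at peaks of genes with peaks at day 4 only were positive in 114 of 118 cases, sites of genes with day 0 peaks only were negative in 46 of 65, and neither set holds a member. The log fold change, whose base is not stated, had a median of 2.19 over the 386 finite gains at new peaks in the authors' deposited table, and 11 gains were listed as infinite. The median gain at overlapping peaks of the same genes was 1.15 in the authors' deposited table, where 414 of 5008 (8.27%) had a called gain and 239 (4.77%) a called loss. By gap, called gains in the authors' deposited table covered 4.42% of new peaks at 0 bp, 9.69% at 1 to 100 bp, 18.4% over 100 and up to 1000 bp, 17.9% over 1000 and up to 10000 bp and 12.7% beyond. Most new peaks therefore carried no called change: 424 of 2841 (14.9%) met any listed site.

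The largest finite gain lay at the first transcribed bases of Cnn3, which encodes the actin-binding protein calponin 3. Its new peak on chromosome 3 (121426541 to 121426590, plus strand) had a score of 19.1 and stood 28405 bp from the nearest day 0 peak, and the authors' deposited table gave a log fold change of 6.83 at a false discovery rate of 6.0e-05. Egfr, the epidermal growth factor receptor of basal keratinocytes, had 3 new peaks among 4 day 4 peaks, and the one 50 bp from its 3′ end carried a gain of 6.26 in the authors' deposited table. Map2k1, the kinase MEK1 downstream of that receptor, had its new peak 50 bp from the 5′ end and 67017 bp from its day 0 peak, with a gain of 5.78 in the authors' deposited table.
The next finite gains in the authors' deposited table were 5.29 in the transcriptional coactivator gene Zmiz2, 5.24 in Map2k3, a kinase upstream of p38, and 5.23 in the myelin basic protein gene Mbp. Below them in the authors' deposited table came 4.86 in Taz, 4.71 in the RNA helicase gene Ddx5, 4.70 in the receptor phosphatase gene Ptprf and 4.68 in the chaperone gene Dnajc5. The new peak of Map2k3 was itself weak, with an authors' p of 0.106. Zmiz2, Ddx5, Ptprf and Dnajc5 had these peaks 50 to 148 bp from the 3′ end. Losses at new peaks were smaller: in the authors' deposited table the changes were -1.96 in Mtfr1l, -1.17 in Armt1, -1.06 in Perp, a desmosomal membrane protein, -1.04 in the antizyme gene Oaz2 and -1.003 in the RNA-binding protein gene Pum2. Each of these 5 new peaks lay at most 100 bp from a day 0 peak.

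Host genes were more often listed as higher in expression. In bulk RNA a change in the number of cells of a kind and in RNA per cell cannot be told apart. In the authors' deposited table, 982 of the 1984 genes (49.5%, 47.3 to 51.7) were higher at day 4 and 312 (15.7%, 14.2 to 17.4) were lower at a DESeq2 adjusted p under 0.05, against 27.1% higher and 26.4% lower of all genes tested (53.5% in all). Among the 4348 genes with peaks on both days but no new peak, 22.9% were higher and 38.2% were lower in the authors' deposited table. The median log2 fold change of listed genes was 0.50 with a new peak and -0.41 without one in the authors' deposited table, beside 0.26 over the whole table. The direction of this table was read in the same way as for methylation. Of the genes with peaks at day 4 only that it lists, 466 of 497 were positive, and of those with peaks at day 0 only, 765 of 797 were negative. That reading takes a gene with peaks on 1 day only to be higher on that day. Which day is called higher for host genes therefore rests on it and is no separate finding. Without use of peaks, 25 of the 28 listed cell cycle genes were lower at day 4 under this reading and 3 were higher.

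The relation was graded by the size of the expression change. By the authors' deposited table, a new peak was held by 64.2% of genes with peaks on both days that were at least 2-fold higher, 46.5% of those higher by less, 29.0% of those not listed, 18.3% of those lower by less than 2-fold and 6.02% of those at least 2-fold lower. A day 0 peak without a day 4 overlap ran the other way, at 10.6%, 27.1%, 38.8%, 47.2% and 65.9% over the same 5 classes. Genes with 1 new peak were higher in 71.1% of the listed cases, those with 2 in 83.1% and those with at least 3 in 92.7%, with medians of 0.45, 0.56 and 0.89 on the log2 scale in the authors' deposited table. Of the 185 genes with at least 3 new peaks, 53 were at least 2-fold higher and none at least 2-fold lower. Over all 6332 genes with peaks on both days, 349 were at least 2-fold higher and 399 at least 2-fold lower. Listed genes with a new peak had a median mean normalized count of 1503 in the authors' deposited table. It was 943 for listed genes with peaks on both days and no new peak, and 1982 for those with at least 3 new peaks. The number of reads over a transcript goes with its level, and the part of this level in the calling of new peaks was not tested. Called gains of methylation in the authors' deposited table, set beside this, stood at 16.9%, 10.7%, 13.6%, 20.1% and 41.7% of the new peaks over the same 5 classes. The share was lowest in genes higher by less than 2-fold and rose from there to genes at least 2-fold lower. Over that range its order was the reverse of that of new peaks. Genes at least 2-fold higher, at 16.9%, broke this order. For genes higher by less than 2-fold the interval ended at 12.6, and for those lower by less than 2-fold it began at 16.2. The last share rests on 10 of 24 peaks (interval 24.5 to 61.2). The reason for this order was not tested.

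**Figure D3:**
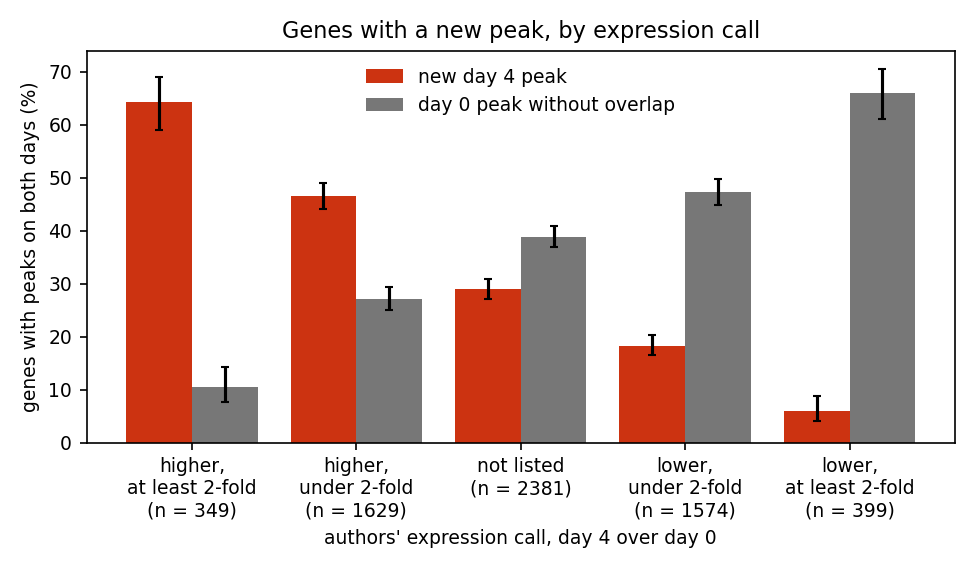
Share of genes with peaks on both days (y, percent, whiskers 95% Wilson intervals) that hold a new day 4 peak or a day 0 peak without overlap, in 5 classes of the authors' expression call (x). New peaks are in 64.2% of genes of the class at least 2-fold higher and 6.02% of the class at least 2-fold lower, and unmatched day 0 peaks run the opposite way, with 10.6% and 65.9%.

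Many host genes had peaks of both kinds: 40.3% (38.1 to 42.4) of genes with a new peak also had an unmatched day 0 peak, against 37.1% (35.6 to 38.5) of the other genes with peaks on both days. Of listed genes, those with a new peak alone were higher in 84.2% of cases (693 of 823), those with both in 61.4%, those with an unmatched day 0 peak alone in 18.7% and those with neither in 49.1%, by the authors' deposited table.

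Neat1, the long noncoding RNA that builds nuclear paraspeckles, had the most new peaks, 9 of its 13 day 4 peaks, all between its 5 day 0 peaks. Its strongest new peak on chromosome 19 (5827456 to 5827755, minus strand) had a score of 34.1, and in the authors' deposited table it carried a gain of 1.64. Neat1 RNA rose by a log2 fold change of 0.90 (SE 0.12) with a DESeq2 adjusted p of 3.2e-12 in the authors' deposited table. Sox11, a transcription factor of the SRY-box family, had 7 new peaks among 9, of which 3 lay 5′ and 4 lay 3′ of all its day 0 peaks. The Sox11 peaks had scores of 4.58 to 61.8, the strongest 845 bp from the 5′ end, and the RNA rose by 2.14 (SE 0.15; DESeq2 adjusted p 1.2e-44) in the authors' deposited table. Its first 50 transcribed bases, part of which is printed above, formed 1 of these peaks with a score of 30.7.

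Several other genes had many new peaks. Of these, Ino80d, Ptgs2, Nbeal2, Akap17b and Zmym5 had only 1 or 2 day 0 peaks, while Os9 had 4, Col4a2 had 5 and Arhgef17 had 7. Ino80d, a subunit of the INO80 chromatin remodelling complex, had 6 new peaks among 7 with scores of 42.7 to 97.9, and the gene is not in the authors' expression table. Ptgs2, the inducible cyclooxygenase COX-2, had 6 new peaks among 8, with low scores of 3.04 to 7.17, and its RNA rose by 0.86 (SE 0.15) on the log2 scale in the authors' deposited table. Nbeal2 had 5 new peaks among 6, one of them 50 bp from the 3′ end with a gain of 4.26 in the authors' deposited table, where its RNA rose by 1.03 (SE 0.13) on the log2 scale. The plots of peak positions show where those of Ptgs2 and Nbeal2 lie along the gene.
Akap17b, an A-kinase anchoring protein gene, had 6 new peaks among 7, and its RNA rose by 1.59 (SE 0.15) on the log2 scale in the authors' deposited table. Os9, a lectin of endoplasmic reticulum quality control, had 6 among 9 and rose by 0.71 (SE 0.11) in the authors' deposited table. Col4a2, a type IV collagen chain of the basement membrane, had 6 among 10 and rose by 1.62 (SE 0.12) there. Arhgef17, a guanine nucleotide exchange factor for small GTPases, had 5 among 10 and rose by 0.76 (SE 0.13), and the zinc finger gene Zmym5 had 5 among 7 and rose by 0.43 (SE 0.13), again as log2 values of the authors' deposited table.

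The highest scored new peak was in Exoc5, a subunit of the exocyst complex that tethers secretory vesicles. It lay on chromosome 14 (49066568 to 49066617, minus strand), 50 bp from the 5′ end and 52293 bp from the day 0 peak, with a score of 677 and an authors' p of 3.6e-26. Next came the homeobox gene Cux1 with a score of 353, the haem synthesis enzyme gene Uros with 299.7 and the nuclear factor I gene Nfic with 289. The Cux1 peak had a called gain of 3.82 and the Nfic peak one of 1.27 in the authors' deposited table.
Below these stood Tmem110 with 277, the microtubule-associated protein gene Eml1 with 270.0, Srgap2, a GTPase-activating protein for Rac, with 234, Lcorl with 226.5, Osbpl8 with 223 and Arhgef17 with 214. Of these 10 peaks, only those of Cux1 and Nfic met a listed site of differential methylation. By score, 9 of the 10 were the highest scored day 4 peak of their gene, and that of Nfic ranked behind an overlapping one.

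Among genes with the largest rises, Clu, the secreted chaperone clusterin, was higher by a log2 fold change of 5.996 (SE 0.10) in the authors' deposited table and had a new peak 52 bp from its 3′ end with a called gain of 2.42. Krt15, a keratin of basal and hair follicle stem cells, was higher by 4.57 (SE 0.11) in the authors' deposited table, with 3 new peaks, the strongest at a gain of 2.93. Apcdd1, a Wnt inhibitor, was higher by 4.28, the small GTPase gene Rhov by 3.798, the late cornified envelope gene Lce1f by 3.72 and Tgfb2, a ligand that restrains keratinocyte growth, by 3.33 on the log2 scale in the authors' deposited table. The Lce1f peak was weak, with an authors' p of 0.256. The highest scored new peaks of Apcdd1, Rhov, Lce1f and Tgfb2 met no listed site of differential methylation.
New peaks also occurred in genes whose RNA fell. In the authors' deposited table Pck2, a mitochondrial gluconeogenic enzyme, changed by -2.89, the serine synthesis gene Psat1 by -2.14, the transglutaminase gene Tgm2 by -2.09, Adss, an enzyme of AMP synthesis, by -1.99, the nucleolar protein gene Nop56 by -1.73 and the phenylalanyl-tRNA synthetase gene Farsb by -1.63 on the log2 scale. A gain of methylation was called at the new peak of 5 of these 6 genes, all but Psat1, in the authors' deposited table. It was 1.66 in Pck2, 2.21 in Tgm2, 2.74 in Nop56 and 3.15 in Farsb, and the gain in Adss was listed as infinite. For comparison, gains were called at 14.0% of all new peaks, and at 10 of the 24 in genes at least 2-fold lower.

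By function, the genes of desmosomes and tight junctions, the plaques and belts that hold epidermal cells together, most often held new peaks: 13 of the 16 with peaks on both days, beside 31.3% of all such genes. Among them were the tight junction scaffold Tjp1 (highest new score 8.91) and the desmosomal cadherin Dsg2 (7.85). Of the 13, 8 were higher, 1 (Dsc3) was lower and 4 were not listed in the authors' deposited table, beside 9 higher and 2 lower of all 16.
In the basal layer and adhesion list, 9 of 16 genes held a new peak, led by the laminin chain gene Lama3 (20.8) and the hyaluronan receptor gene Cd44 (12.6). The basal keratins Krt5 and Krt14 had new peaks of low score, 1.48 and 1.16. The Krt14 peak had a called gain of 1.52 in the authors' deposited table, and the Krt5 peak met no listed site. Of the 9 host genes 5 were higher and 3 lower in the authors' deposited table, while over the 16 genes 5 were higher and 9 lower.
Early and late differentiation regulators held new peaks in 6 of 12 genes, with Cebpa (36.5), Grhl1 (10.7) and Prdm1 (5.50) in front, and 5 of the 6 were higher in the authors' deposited table, beside 9 of all 12. Klf4, a driver of the skin barrier, held a new peak and was lower, at -0.57 on the log2 scale in the authors' deposited table. The cornified envelope list had 4 of 9, with the transglutaminases Tgm5 (25.5) and Tgm1 (9.07) and the suprabasal protein gene Sbsn (5.74).

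Among regulators of chromatin, 22 of 42 genes with peaks on both days held new peaks, led by Arid1a (20.6), a subunit of the BAF remodelling complex, Tet3 (19.1), a DNA demethylase, and the remodeller Chd1 (14.0). Few of them were listed for expression: 6 of the 22 were higher, none was lower and 16 were not listed in the authors' deposited table. For comparison, 7 of the 42 were higher and 7 lower. Over all genes with peaks on both days, 42.8% of those with 5 or more day 0 peaks held a new peak. Arid1a had 5 day 0 peaks, Tet3 had 9 and Chd1 had 4, and the part of peak number in any list was not tested. Actin and cell shape genes held new peaks in 7 of 16, with the crosslinker Actn4 (30.6), the myosin heavy chain gene Myh9 (12.4) and the kinase Rock2 (7.89). Ubiquitin ligases and deubiquitinases did in 10 of 24, with the ligase genes Itch (37.9) and Herc1 (24.0). RNA processing and translation control genes did in 12 of 31, with the translational regulator Cpeb4 (39.9), the Argonaute gene Ago2 (28.8) and the splicing factor gene Srsf2 (22.2), whose gain was 4.05 in the authors' deposited table.

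In the signalling lists between 33.3% and 40.0% of genes held a new peak. In the Wnt pathway 6 of 15 genes held new peaks, headed by the receptors Fzd7 (46.8) and Fzd1 (10.8) and by beta-catenin, Ctnnb1 (11.2), and the authors' deposited table lists 5 of the 6 as higher, beside 9 of all 15. For Notch it was 6 of 15, with the ligand Jag1 (24.45), the inhibitor Numb (9.28) and the coactivator Maml2 (8.47), and 4 were higher, beside 7 of all 15. In the TGF-beta and BMP pathway it was 7 of 21, with Tgfb2 (29.4), the receptor Bmpr1a (14.9) and the ubiquitin ligase Smurf1 (9.63), and 5 were higher, beside 9 of all 21. The EGF receptor, ligand and MAPK list had 6 of 18, with Map2k1 (21.7), Egfr (21.0) and Erbb2 (20.7), and gains were called at new peaks of 3 of the 6 in the authors' deposited table, beside 357 of all 1984 host genes. Wound, alarmin and inflammation genes had 5 of 14, with Ptgs2 (7.17), the stress keratin Krt6b (6.57) and the cytokine Il1a (6.17), and all 5 were higher in the authors' deposited table, beside 8 of all 14.
At or below the share over all genes were the Myc and ribosome biogenesis list with 5 of 16 (Bop1 19.8, Nop56 9.28, Mxd1 6.99), AP-1, immediate early and stress factors with 4 of 18 (Btg2 8.25, Ier2 3.13, Ier5 2.89), the m6A machinery with 3 of 14 (the writer subunit Rbm15b 5.51 and the readers Igf2bp2 3.62 and Ythdf1 1.78) and the cell cycle with 3 of 16 (Cdk4 5.99, Ccnd2 4.22, Cdkn2b 1.41). All values in brackets are the highest new enrichment score of the gene. With 9 to 42 genes to a list, these counts describe the lists and no test was made of them.

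**Figure D4:**
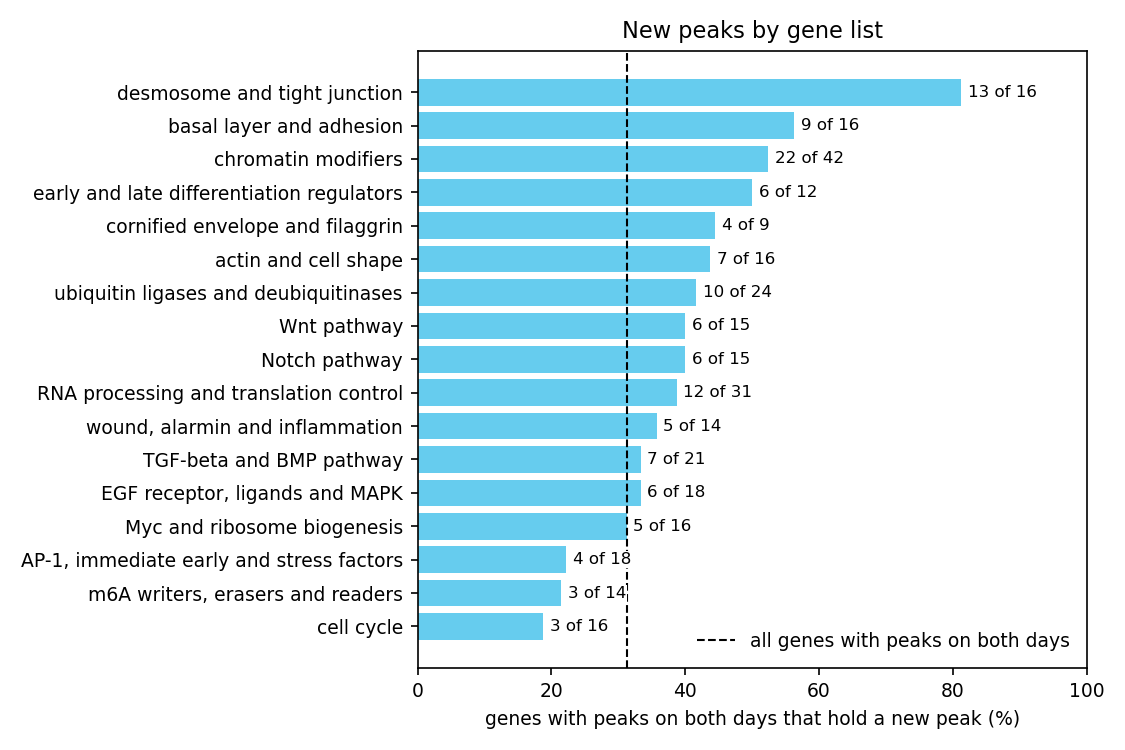
Share of genes with peaks on both days that hold a new peak (x, percent) in each gene list with at least 5 such genes (y), with the count beside each bar and the share over all 6332 genes as a dashed line. The desmosome and tight junction list stands at 13 of 16 and the cell cycle list at 3 of 16.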

How the data were processed

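The data were 12 libraries, 3 immunoprecipitated and 3 input per day, grouped by the labels' titles. HISAT2 2.1.0, DESeq2 1.18.1 and the build mm10 were used, per the submitters' processing notes. Steps not given in the sources used here were peak calling, the joining of replicates and the methylation test. Each deposited peak list has an enrichment score and a p-value for every peak, per the file headers. The expression table deposited by the authors holds a mean normalized count (a signal over the compared libraries), a log2 fold change, its standard error and an adjusted p-value. The methylation table deposited by the authors has a log fold change of unstated base (handled as a score) with its p-value and false discovery rate. Both tables list only entries under 0.05, and the size of each test family was worked out as adjusted p times rank over p. Library depth is unknown.

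From these, overlaps, gaps, positions against RefSeq gene spans (GRCm38.p6) and shares with 95% Wilson intervals were computed with Python 3.11.15, numpy 2.4.6, scipy 1.17.1, pandas 2.3.3 and matplotlib 3.10.9. The overlap code was checked on simulated data against bedtools 2.31.1. Of the 1984 genes, 1908 matched RefSeq by symbol (1894 protein-coding). No test across samples was possible, and none was made over peaks or genes. Named genes were the 10 with most new peaks, the 10 highest scores, the 10 largest finite gains and 5 largest losses, the 6 largest rises and 6 largest falls at a mean of at least 100, up to 3 per list by score, 3 on each side of the overlap threshold, and Pvt1 and Myc, without predicted genes; a few genes that the rule takes are not reported here. Pcyt1a, Cdk2ap2, Eps8l1, Yars, Nrarp, Lurap1l, Krt5, Krt14, Klf4 and Dsc3 were added after their values were seen. The members and the 20 gene lists were chosen with earlier results of these data known. Alternatives were other overlap rules, distances, p-value and false discovery rate thresholds and a change of at least 2-fold.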

Additional observations from a re-analysis of the deposited data

How the results depend on the processing

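No paired analysis was possible because the deposited tables hold no value per library, and for the same reason no replicate could be left out. The share of day 4 peaks that are new, 16.4% as reported, was 21.3% when peaks covered to less than 50% counted as new, 11.2% when a day 0 peak within 100 bp counted as shared and 5.53% within 1000 bp, where 960 peaks in 788 genes remained. It was 14.2% for day 4 peaks with p under 1e-05, 17.6% with day 0 peaks so limited and 15.3% with both. With contact of 1 bp as new it was 17.4%, and with adjoining windows as shared 14.3%; these 2 settings, and those over 100 bp below, were chosen after seeing the data. New peaks near the 3′ end were 24.0% within 500 bp and 44.0% within 2000 bp, against 31.9%. Called gains (14.0%) were 7.60% at a false discovery rate under 0.01, 15.6% for new peaks with p under 1e-05 and 17.1% for those over 100 bp from a day 0 peak. Of listed host genes 75.9% were higher, 90.3% at a change of at least 2-fold and 79.1% with a new peak over 100 bp away. With p under 1e-05 the highest-of-gene share was 12.5% and the median percentile 28.0, and centre to centre the median gap was 643.5 bp. The cause of these shifts beyond the altered definitions was not tested. Depth is unknown, so what it limits cannot be stated.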

Other observations

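Within 100 bp of the annotated 3′ end, a distance chosen after the values were seen, lay 399 of 2707 placed new peaks (14.7%, interval 13.5 to 16.1), against 261 of 4782 overlapping peaks of the same genes (5.46%, 4.85 to 6.14). Within 100 bp of the 5′ end lay 170 new peaks (6.28%), against 199 overlapping peaks (4.16%). Among peaks of 50 bp, the 3′ shares were 17.6% of new peaks and 8.18% of overlapping ones. A called gain in the authors' deposited table covered 26.1% of the new peaks at the 3′ end and 18.2% of those at the 5′ end, and 11.4% of those near neither (243 of 2138). Overlapping peaks of the same genes had the same order, with 14.6% at the 3′ end, 12.6% at the 5′ end and 7.75% near neither, so the pattern is not particular to new peaks. The median finite gain was 2.68 at the 3′ end, 2.16 at the 5′ end and 1.96 elsewhere, as log fold changes of the authors' deposited table, against 1.53, 1.64 and 1.10 for overlapping peaks at the same places. Clu, Krt15, Egfr, Ddx5, Ptprf, Tgm2 and Nbeal2 had a new peak with a called gain within 100 bp of the 3′ end, and Cnn3 and Map2k1 within 100 bp of the 5′ end.

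By chromosome, leaving out Y with 2 peaks, the share of new peaks among day 4 peaks of genes with peaks on both days ran between 13.3% on chromosome 13 and 18.8% on chromosome X.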
